A study of Mus musculus with 6 samples.

Results

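Macrophages and monocytes are the phagocytes of the resting mammary gland, and 37 genes that mark them or serve their work were followed in glands with and without caveolin-3. The members were chosen by name, with earlier results of these data known. Out of 18193 genes on the arrays, 36 were members with a probe set (a group of short probes read as 1 value) annotated to that gene alone. Spp1, the osteopontin gene, was not analysed here. Where a gene had several such sets, the brightest one by its average across arrays stood for it, with no filter on low values, so all 36 were tested. All glands were from FVB/N mice, virgin females aged 4 months. Of the 6 arrays, 3 measured glands of wild-type (WT) mice and 3 measured glands of mice that lack Cav-3 (knockout). Neither group had any treatment. Each value is a log2 intensity after RMA (robust multi-array averaging), and each difference is knockout minus wild type on that log2 scale. The tissue was the whole gland, so fewer cells of a type and less RNA per cell cannot be told apart.

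Tissue macrophages depend on the cytokine CSF1, which signals through its receptor CSF1R, and on the transcription factor PU.1, encoded by Spi1. They bind what they take up through scavenger receptors, lectins and antibody (Fc) receptors, and digest it in lysosomes with cathepsins. In the mammary gland they surround ducts, end buds and fat, and help in ductal growth and in clearing dying epithelium. Macrophages under type 2 cytokines express a set of genes often called alternative activation markers, among them Mrc1, Clec10a, Retnla and Arg1. Several members are also made elsewhere: Csf1 and Axl by stromal cells, Ctsb, Ctsd and Lgals3 by epithelium, Retnla by adipose tissue, and Clec10a, Cd209a and Itgax by dendritic cells.

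The macrophage genes that passed the test lay on either side of wild type. Of 36 members, 5 fell (Maf, Clec10a, Retnla, Mrc1 and Csf1) and 2 rose (Clec7a and Msr1), at a p adjusted over all probe sets below 0.05 in the limma fit. That is 13.9% lower and 5.56% higher, against 8.51% of all 18193 genes lower and 7.65% higher. The called changes were between 1.31-fold and 1.80-fold, and 0 members changed by 2-fold. Of 10 markers that define macrophages, Mrc1 fell, Msr1 rose and the other 8, among them Csf1r, Adgre1 and Cd68, did not pass. By sign, 26 members lay below wild type and 10 above, with a median difference of −0.18, beside −0.01 over all genes. The counts depended on single arrays: without wild-type 1 or without knockout 3 no member passed in either direction, while the median stayed below 0, at −0.12 and −0.15. At an unadjusted p under 0.05 in limma, 14 members were lower and 4 higher with all arrays, against 17.3% and 16.3% of all genes. Without wild-type 1 the counts were 9 lower and 4 higher, against 15.1% and 14.2% of all genes, and without knockout 3 they were 9 and 3, against 14.1% and 12.7%.

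Promoter sequence is shown for the 4 of 7 called genes that had a window, so that genes that fell (Mrc1, Retnla and Csf1) can be read beside one that rose (Clec7a). The windows come from RefSeq (GRCm38.p6) and run from 250 bases before to 50 bases after a gene's start. Capitals mark matches, on either strand, to any of 4 motifs: the ETS core AGGAAG used by PU.1, a STAT palindrome (TTC and GAA, 4 bases apart), the C/EBP motif TTGCNNAA and the core TGCTGA of MAF recognition elements. The Mrc1 window is chr2:14229164-14229463 on the plus strand, the Retnla window chr16:48842359-48842658 on the plus strand, the Csf1 window chr3:107760420-107760719 on the minus strand and the Clec7a window chr6:129472730-129473029 on the minus strand.
Mrc1: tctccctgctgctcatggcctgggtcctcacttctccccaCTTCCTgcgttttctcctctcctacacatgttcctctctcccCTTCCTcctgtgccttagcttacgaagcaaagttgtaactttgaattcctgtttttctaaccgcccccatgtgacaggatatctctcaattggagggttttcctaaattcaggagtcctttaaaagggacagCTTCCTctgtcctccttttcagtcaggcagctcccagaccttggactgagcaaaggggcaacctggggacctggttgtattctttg
Retnla: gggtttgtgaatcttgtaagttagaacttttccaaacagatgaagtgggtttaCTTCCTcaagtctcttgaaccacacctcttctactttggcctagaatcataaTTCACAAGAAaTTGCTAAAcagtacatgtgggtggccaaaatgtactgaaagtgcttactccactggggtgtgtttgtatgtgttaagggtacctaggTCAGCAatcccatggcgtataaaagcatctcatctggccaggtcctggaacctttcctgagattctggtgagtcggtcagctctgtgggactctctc
Csf1: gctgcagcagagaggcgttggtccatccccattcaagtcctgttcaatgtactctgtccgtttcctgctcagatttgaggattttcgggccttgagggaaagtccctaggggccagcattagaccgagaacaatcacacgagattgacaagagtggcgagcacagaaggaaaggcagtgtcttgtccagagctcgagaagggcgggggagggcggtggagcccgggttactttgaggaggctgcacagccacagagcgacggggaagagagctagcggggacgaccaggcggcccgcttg
Clec7a: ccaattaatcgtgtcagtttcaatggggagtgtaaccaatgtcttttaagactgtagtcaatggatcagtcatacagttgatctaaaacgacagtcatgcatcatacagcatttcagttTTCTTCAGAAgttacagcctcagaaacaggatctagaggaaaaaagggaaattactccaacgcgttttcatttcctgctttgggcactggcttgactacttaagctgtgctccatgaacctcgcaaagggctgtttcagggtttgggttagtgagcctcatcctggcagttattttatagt

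All 3 capital stretches of Mrc1 read CTTCCT, the reverse complement of the ETS core, and begin 210, 168 and 36 bases before the start. In Retnla the capitals are an ETS core (CTTCCT, 197 bases before the start), a STAT palindrome (TTCACAAGAA, 145 bases before), a C/EBP match (TTGCTAAA, 134 bases before) and a MAF core (TCAGCA, 47 bases before). Clec7a holds a STAT palindrome (TTCTTCAGAA, 131 bases before the start) and 0 matches to the ETS core. Csf1 holds 0 matches to any of the 4 motifs. The tables held windows for 26 members, 29 in all since some genes have several starts. The ETS core was in 14 of those 29 windows (48.3%), against 35.4% of all 32851 windows of 300 bases. The STAT palindrome was in 6 (20.7%, against 6.95%), the C/EBP motif in 5 (17.2%, against 10.8%) and the MAF core in 7 (24.1%, against 19.5%). These counts describe letters in a window, and neither binding nor its effect was measured.

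Cav3 read 4.79, 5.02 and 4.74 in wild type and 4.76, 4.83 and 4.72 in knockout. It differed by −0.08 ± 0.10 (adjusted p = 0.679 in limma). Its probe set was dim in both groups, with a mean at percentile 36.5 of all probe sets, so it does not check the genotypes. Whether its target lies outside the deleted part was not tested. The labels do not say that each gland came from a different mouse, so the p-values measure the spread between these 6 samples. With 3 arrays against 3, a two-sided exact permutation test allows no p below 0.1, so calls rest on the limma fit. All 36 members had means above the highest of 9 Y-linked probe sets (3.25), which stand for background in female tissue. The dim Cav3 set lay above it as well, so passing this low bar does not show that a gene was detected.

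Among the growth factor axis and lineage regulators, 2 of 4 genes fell, against 8.51% of all genes. Maf (Entrez 17132), a transcription factor of resident macrophages that T cells also use, read 10.51, 10.72 and 10.36 in wild-type glands 1 to 3 and 10.04, 9.71 and 9.32 in knockout glands 1 to 3. The groups did not overlap and knockout 3 was the lowest array. Maf fell by 0.84 ± 0.18 (SE), or 1.79-fold (adjusted p = 0.0246). Of its 6 probe sets, 3 passed, all lower, and a dim set with a wild-type mean of 4.87 had a difference of 0.05. Csf1 (Entrez 12977), the growth factor of the lineage, read 9.17, 9.30 and 9.20 in wild type and 8.88, 8.80 and 8.82 in knockout. Every knockout array was below every wild-type array, and the spread within groups was narrow. The fall of 0.39 ± 0.08 was 1.31-fold (adjusted p = 0.0236). Its 3 other probe sets were dimmer and did not pass, at −0.06, −0.15 and −0.23, and with all 4 averaged the gene lost its call (difference −0.21, adjusted p = 0.0652).

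Csf1r, the receptor for CSF1, read 12.46, 12.29 and 12.15 in wild type and 12.07, 12.04 and 11.94 in knockout. The groups did not overlap, but the difference of −0.28 ± 0.10 did not pass (adjusted p = 0.121). Its 3 probe sets all lay below wild type, by 0.28, 0.37 and 0.39, and their mean passed (−0.35, adjusted p = 0.0425). Spi1, which encodes the PU.1 regulator of myeloid identity, read 7.15, 7.12 and 7.08 in wild type and 7.15, 7.08 and 7.13 in knockout. The arrays of both genotypes overlapped almost fully. Its difference was 0.01 with a 95% interval of −0.18 to 0.19.

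**Figure D1:**
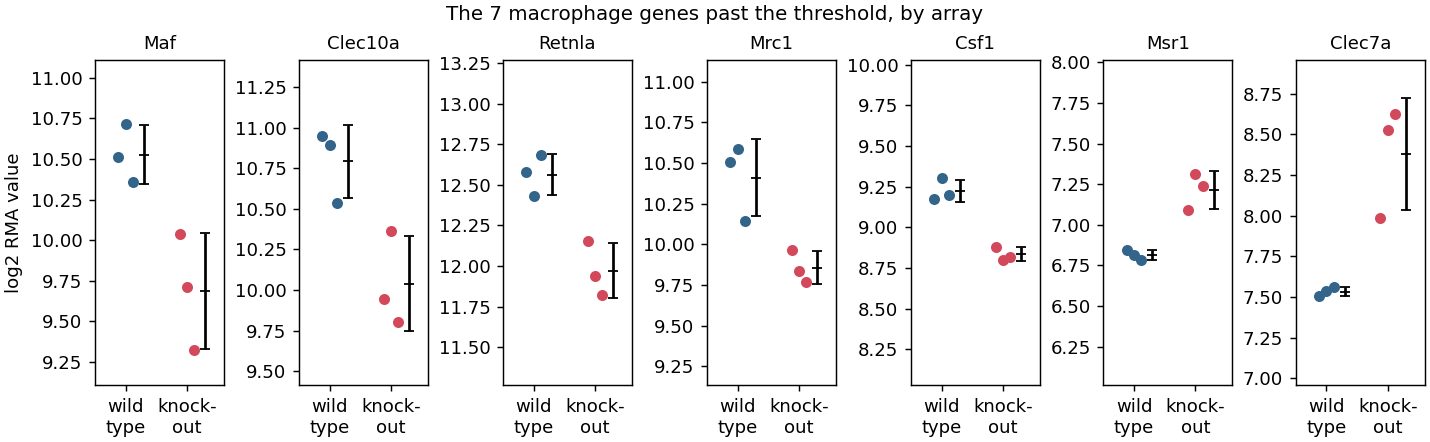
Log2 RMA values of the 7 called genes in each of the 3 wild-type (blue) and 3 knockout (red) arrays, with the mean and SD of each group in black; each panel spans 2 log2 units around the gene's mean. Knockout points lie below all wild-type points for Maf, Clec10a, Retnla, Mrc1 and Csf1 and above them for Msr1 and Clec7a.

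Of 6 surface markers and scavenger receptors, 5 lay below wild type and 1, Msr1, above, and the 2 called genes went opposite ways. Mrc1 (Entrez 17533), the mannose receptor of tissue macrophages, read 10.51, 10.58 and 10.14 in wild type and 9.97, 9.83 and 9.77 in knockout. The lowest wild-type array, wild-type 3, was still above the highest knockout array. Mrc1 fell by 0.55 ± 0.13, or 1.47-fold (adjusted p = 0.0325). Msr1 (Entrez 20288), the class A scavenger receptor for modified lipoproteins, went the other way, from 6.84, 6.81 and 6.78 to 7.09, 7.31 and 7.24. Wild-type arrays were nearly equal and all knockout arrays stood above them. Msr1 rose by 0.40 ± 0.09, or 1.32-fold (adjusted p = 0.0290). With its 4 probe sets averaged the difference was 0.24 and the call was lost (adjusted p = 0.243).

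The other 4 genes of this group did not pass. Adgre1, which encodes F4/80, read 8.53, 8.33 and 8.32 in wild type and 8.19, 8.34 and 8.17 in knockout, with a 95% interval of −0.39 to 0.07. Cd68, an endosomal glycoprotein of phagocytes, differed by −0.11 (−0.33 to 0.11). For Adgre1 and Cd68 the groups overlapped, and the intervals leave room for a fall of up to 0.39 and 0.33. Cd163, the receptor that clears haemoglobin and haptoglobin, read 8.87, 8.70 and 8.28 in wild type against 8.43, 8.62 and 8.06 in knockout (−0.25 ± 0.19, adjusted p = 0.460). Marco, another scavenger receptor, read 8.09, 7.91 and 8.41 against 7.99, 7.55 and 7.67 (−0.40 ± 0.16, adjusted p = 0.157). Of the knockout arrays, 2 of Cd163 and 1 of Marco lay inside the wild-type range.

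The receptors that take up dying cells, Mertk and Axl, did not pass. Axl read 8.96, 9.06 and 8.86 in wild type and 8.74, 8.53 and 8.64 in knockout, without overlap (−0.33 ± 0.10, adjusted p = 0.0704). Mertk ranged from 8.57 to 9.47 in wild type and from 8.70 to 8.90 in knockout (−0.21 ± 0.20). The high array there was wild-type 1, and without it the difference of Mertk was 0.02. Of the integrins, Itgam (CD11b) read 5.05, 4.36 and 4.36 in wild type and 4.15, 4.37 and 4.15 in knockout (−0.37 ± 0.19, adjusted p = 0.256). Itgax (CD11c), shared with dendritic cells, lay above wild type in all 3 knockout arrays, at 7.91, 7.89 and 8.22 against 7.58, 7.58 and 7.72. Its difference of 0.38 ± 0.11 did not pass (adjusted p = 0.0718), and it did with array weights (0.41, adjusted p = 0.0430).

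None of the 6 genes of the Fc receptor and TREM2 group passed in limma, though 5 lay below wild type. At an unadjusted p under 0.05 in limma 3 of them were lower, against 17.3% of all genes. That count was 0 without wild-type 1 and without knockout 3, against 15.1% and 14.1% of all genes. Fcgr1, the high-affinity IgG receptor, Fcgr3, an activating receptor, and Fcgr2b, the inhibitory one, differed by −0.24 ± 0.10, −0.23 ± 0.10 and −0.16 ± 0.08. Fcer1g and Tyrobp encode adaptor chains that carry the signal of activating receptors. Fcer1g read 7.94, 7.88 and 7.78 in wild type and 7.71, 7.65 and 7.60 in knockout (−0.21 ± 0.09, adjusted p = 0.163), with no overlap. Tyrobp overlapped, at 10.56, 10.32 and 10.40 against 10.40, 10.37 and 10.59, with a 95% interval of −0.22 to 0.27. Trem2, a lipid-sensing receptor that signals through Tyrobp, read 5.40, 5.29 and 5.47 against 5.18, 5.10 and 5.05 (−0.27 ± 0.09, adjusted p = 0.0938). Its other probe set differed by 0.11, so the sets of Trem2 disagree in sign. For Fcgr1 and Fcgr2b a dimmer probe set did pass: 1 of Fcgr1 at −0.42 (adjusted p = 0.0477) and 2 of Fcgr2b at −0.47 and −0.33 (adjusted p = 0.0281 and 0.0440).

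The C-type lectins, which bind sugars on microbes and cells, held the member that rose most and one that fell. Clec7a (Entrez 56644), the beta-glucan receptor dectin-1, read 7.50, 7.54 and 7.56 in wild type and 7.99, 8.53 and 8.63 in knockout. Wild-type arrays were nearly equal, and the closest knockout array, knockout 1, was still clear of them. Clec7a rose by 0.85 ± 0.16, or 1.80-fold (adjusted p = 0.0161). Clec10a (Entrez 17312), the galactose-type lectin of macrophages and dendritic cells, moved in the opposite direction, from 10.95, 10.89 and 10.53 to 9.95, 10.37 and 9.80. Knockout 2 came closest to wild type without overlapping it. Clec10a fell by 0.75 ± 0.17, or 1.69-fold (adjusted p = 0.0281). Clec4n, dectin-2, read 7.61, 7.85 and 7.69 in wild type and 7.86, 8.12 and 8.71 in knockout. Knockout 1 of Clec4n exceeded wild-type 2 by little, and the difference of 0.52 ± 0.20 did not pass (adjusted p = 0.142). Cd209a, a DC-SIGN relative, differed by −0.15 ± 0.10 (adjusted p = 0.385).

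None of the 6 lysosomal genes passed by its brightest probe set. At an unadjusted p under 0.05 in limma 3 were lower, against 17.3% of all genes. The count was also 3 without wild-type 1 and without knockout 3, against 15.1% and 14.1% of all genes. With another array left out 2 to 4 were lower, and the share of all genes was not computed there. Ctsb, the cysteine protease cathepsin B, read 13.11, 12.98 and 13.08 in wild type and 12.82, 12.73 and 12.64 in knockout, without overlap. That difference, −0.33 ± 0.09, was the nearest of the uncalled members to the threshold (adjusted p = 0.0549). All 4 other probe sets of Ctsb lay below wild type as well, and 3 of them passed, at −0.58, −0.73 and −0.52 (adjusted p = 0.0150, 0.00816 and 0.0210). With its 5 probe sets averaged, Ctsb passed at −0.47 (adjusted p = 0.0120). Ctsd, an aspartic protease, read 12.09, 12.21 and 12.35 against 12.03, 11.72 and 11.81 (−0.36 ± 0.12, adjusted p = 0.0817). Laptm5, a lysosomal membrane protein of blood cells, read 10.90, 10.86 and 10.91 against 10.67, 10.65 and 10.44 (−0.30 ± 0.10, adjusted p = 0.0804). Neither gene's groups overlapped.

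Ctss, the cathepsin that trims the invariant chain of MHC class II, differed by −0.04 with a 95% interval of −0.25 to 0.16. Lyz2, lysozyme M, differed by −0.09 (−0.35 to 0.16), on a probe set whose gene has a near-identical copy, Lyz1. Gpnmb, a glycoprotein of lipid-laden macrophages, read 8.20, 8.10 and 8.13 in wild type and 7.70, 8.99 and 8.02 in knockout. Its knockout arrays lay on both sides of the wild-type arrays. The difference of 0.09 became −0.29 without knockout 2.

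Of the remaining markers, Mpeg1, the pore-forming perforin-2, differed by 0.08 (95% interval −0.12 to 0.28) and Ms4a7, a membrane protein of resident macrophages, by −0.04 (−0.35 to 0.27). Aif1, the calcium-binding protein IBA1, read 6.73, 6.23 and 6.53 in wild type and 6.94, 6.56 and 7.16 in knockout, with overlap (0.39 ± 0.18, adjusted p = 0.216). Among the secreted and activation proteins, Retnla (Entrez 57262), which encodes the resistin-like protein FIZZ1, read 12.58, 12.43 and 12.69 in wild type and 12.15, 11.94 and 11.82 in knockout. All 3 knockout arrays were lower. Retnla fell by 0.59 ± 0.12, or 1.51-fold (adjusted p = 0.0178). Arg1, the arginase that competes for arginine, spread most among members: 8.67, 7.82 and 8.10 in wild type and 9.21, 7.10 and 7.99 in knockout. The highest and the lowest array of Arg1 were both knockout, and the interval of its difference ran from −1.21 to 1.01. Lgals3, the beta-galactoside-binding galectin-3, differed by 0.02 (−0.22 to 0.27).

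**Figure D2:**
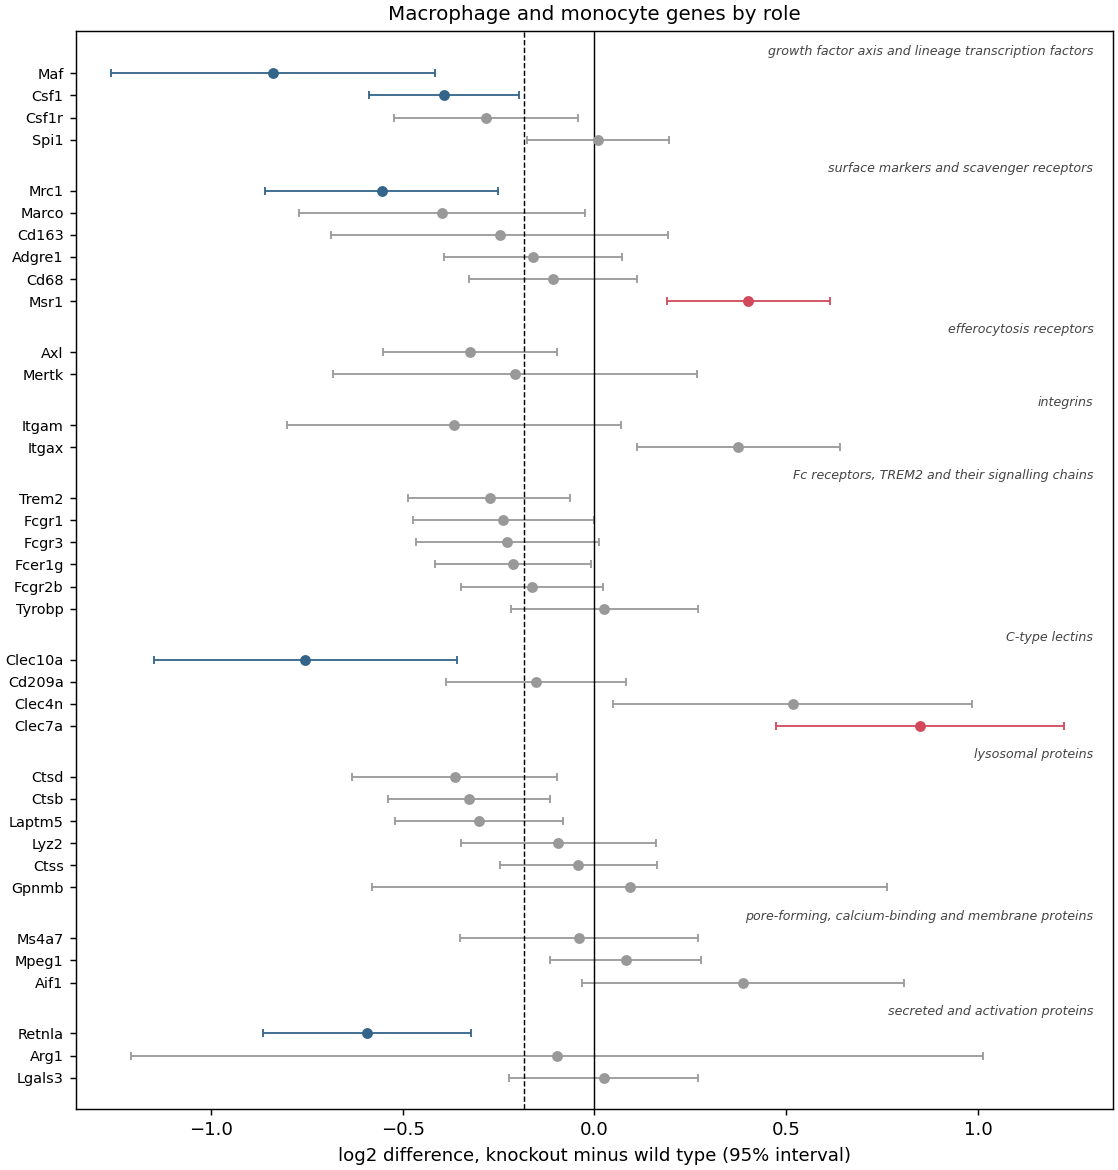
Log2 difference, knockout minus wild type, of all 36 measured members with 95% intervals, grouped by role; blue marks the 5 genes that fell, red the 2 that rose and grey those that did not pass. The dashed line is the members' median of −0.18, and most points lie left of 0.

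Across the members, all 3 knockout arrays lay below all 3 wild-type arrays for 14 genes (38.9%), against 19.8% of all genes, and above them for 4 (11.1%), against 18.5%. The differences were small: 18 members were within 0.25 of wild type, and the median SD between arrays of a genotype was 0.12 in both groups. The mean over the 36 members was 9.05, 8.92 and 8.91 in wild-type glands 1 to 3. In knockout glands 1 to 3 it was 8.84, 8.82 and 8.80, and the labels do not say whether the numbers pair the groups. Wild-type 1 stood highest of the 6. The 10 defining markers (Csf1r, Adgre1, Cd68, Mpeg1, Fcgr1, Mertk, Cd163, Mrc1, Aif1 and Msr1) averaged 8.65 ± 0.14 (SD, n = 3) in wild-type arrays and 8.56 ± 0.01 in knockout arrays, and the knockout values of 8.54 to 8.57 lay within the wild-type range of 8.53 to 8.80.

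Where a member had several probe sets, most of them pointed one way. Of 14 such members with 46 probe sets, 4 sets were as dim as the Y-linked ones. Among the brighter sets, 8 members had all of 2 or more on one side of wild type, 4 had them on both sides (Maf, Msr1, Trem2 and Gpnmb), and 2 had only 1 such set. No member had sets called in both directions. Over all members, those with a single set included, 15 of 68 probe sets were called. Of these, 8 were not the brightest of their gene, and 3 uncalled members (Ctsb, Fcgr1 and Fcgr2b) owned at least 1 of them. By brightest set, 16.2% of all genes were called, and the share of all tested probe sets was not computed.

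**Figure D3:**
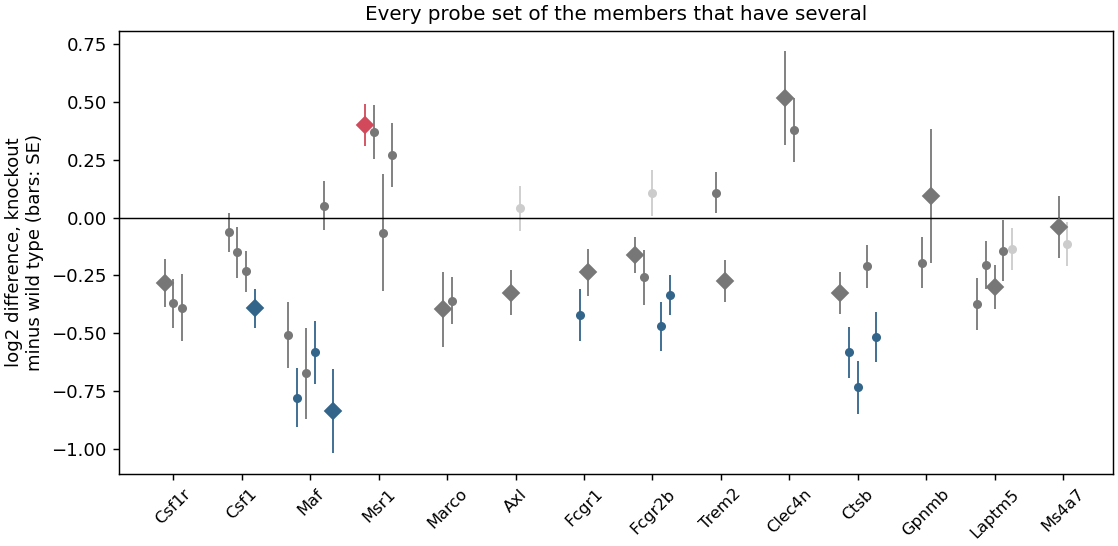
Log2 difference of each probe set, with its SE, for the 14 members that have several; diamonds are the sets that represent the gene, blue sets fell, red sets rose, dark grey did not pass and light grey are the 4 sets within the Y-linked range. Maf has 3 and Ctsb 3 blue sets, while the brightest set of Ctsb is grey.

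Calls of single members depended on which arrays were used. With any 1 array left out, Clec7a and Retnla kept their call in 3 of 6 fits, Maf, Clec10a, Mrc1 and Csf1 in 2 and Msr1 in 1. Clec7a missed the threshold when wild-type 1, when wild-type 3 and when knockout 3 was dropped (adjusted p = 0.0521, 0.0541 and 0.0577), and Retnla lost it without the same arrays (0.0573, 0.0662 and 0.0660). Maf lost it without wild-type 1, 2 or 3 or knockout 3 (0.0681, 0.0792, 0.0526 and 0.0617). Clec10a did so without wild-type 1 or 2 or knockout 1 or 3 (0.0894, 0.0884, 0.0758 and 0.0971), and Mrc1 without wild-type 1 or 2 or knockout 2 or 3 (0.102, 0.0981, 0.0591 and 0.113). Csf1 lost it without wild-type 1, 2 or 3 or knockout 3 (0.0583, 0.0778, 0.0685 and 0.0789), and Msr1 without every array but knockout 1 (0.0565 to 0.0959). The direction of all 7 stayed the same in each of these fits, and the smallest difference of Clec7a was 0.73. The share of all genes called was 16.2% with 6 arrays, 17.5% without knockout 2 and between 6.79% and 13.7% without any other array.

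**Figure D4:**
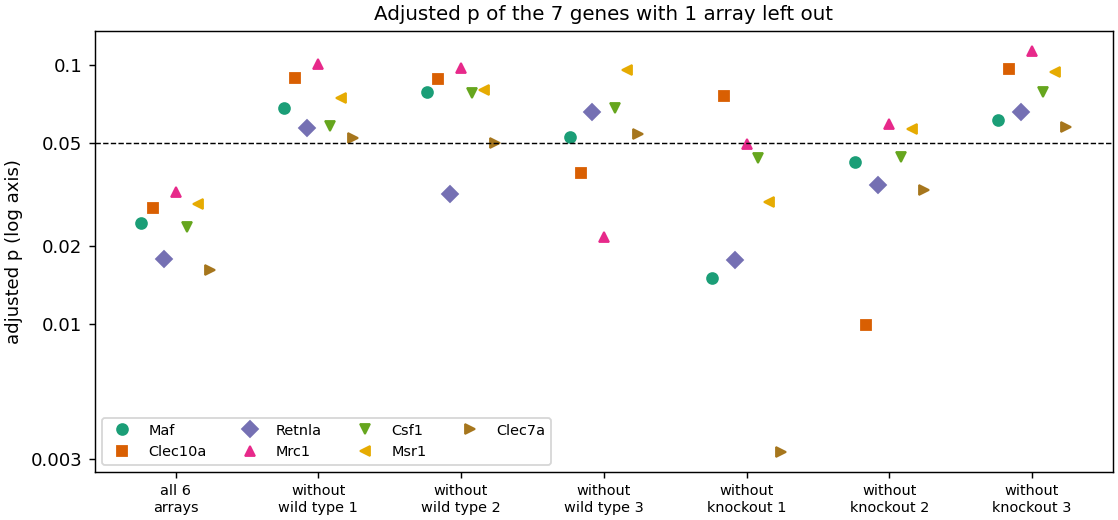
Adjusted p (log axis) of the 7 called genes with all 6 arrays and with each array left out; the dashed line is 0.05. All 7 lie above the line without wild-type 1 and without knockout 3.

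Other macrophage-related genes, which were listed apart from the members, had more falls than rises. These lists were also chosen with earlier results of these data known, so their counts are no independent support. Over all genes, 8.51% fell and 7.65% rose. Of 18 measured genes of phagocyte signalling and transcription, 5 fell (27.8%) and 1 rose (5.56%), with a median of −0.26. Nr1h3, the oxysterol receptor LXR alpha of macrophages, liver and fat, read 8.85, 8.89 and 8.90 in wild type and 8.17, 7.70 and 7.93 in knockout. It fell by 0.95 ± 0.12, or 1.93-fold (adjusted p = 0.00466). Irf8, a transcription factor of monocytes, dendritic cells and B cells, fell by 0.53 ± 0.09, and Btk, a kinase of B cells and myeloid cells, fell by 0.57 ± 0.11. Fgr, a myeloid Src-family kinase, fell by 0.42 ± 0.08. Nr1h3 and Irf8 kept their call without any 1 array. Btk lost it without wild-type 3 or knockout 3 (adjusted p up to 0.0526) and Fgr without wild-type 1 or 3 (up to 0.0654). The list had 3, 2 and 3 falls without wild-type 1, wild-type 3 or knockout 3. Those fits called 9.98%, 8.08% and 6.79% of all genes, both directions together. Its rise, Pik3ap1, an adaptor of phosphoinositide 3-kinase picked out after its values were seen (0.54 ± 0.14, adjusted p = 0.0413), passed only with all 6 arrays or without knockout 2.

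Of 37 measured surface and effector genes of phagocytes, 9 fell (24.3%) and 3 rose (8.11%), with a median of −0.29. The share that rose was near the 7.65% of all genes that did, and 8.51% of all genes fell. Timd4, a phosphatidylserine receptor of resident macrophages, read 8.23, 8.39 and 8.08 in wild type and 7.46, 7.25 and 7.34 in knockout. It fell by 0.88 ± 0.11, or 1.84-fold (adjusted p = 0.00376), and kept its call without any 1 array. Lyve1, a hyaluronan receptor of lymphatic endothelium and of some resident macrophages, read 9.76, 9.77 and 9.15 against 8.55, 8.87 and 8.37. Lyve1 fell by 0.96 ± 0.20 (adjusted p = 0.0202, and up to 0.0770 without wild-type 1 or 2 or knockout 1 or 3). Clec4a3, an inhibitory lectin, fell by 0.53 ± 0.11 (adjusted p = 0.0208, and up to 0.0679 without any wild-type array or knockout 3).

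The 3 surface and effector genes that rose were Cyba, Cd14 and Tlr2, of which the last pair were picked out after their values were seen. Cyba, a subunit of the NADPH oxidase, read 9.45, 9.40 and 9.60 in wild type and 10.01, 10.64 and 10.26 in knockout (0.82 ± 0.16, adjusted p = 0.0165). Cd14, the lipopolysaccharide co-receptor, which mammary epithelium also makes, read 9.75, 9.73 and 9.82 against 10.70, 12.06 and 10.77 (1.41 ± 0.33, adjusted p = 0.0300). Tlr2, a receptor for bacterial lipoproteins, read 8.03, 7.92 and 7.74 against 8.61, 9.80 and 8.81 (1.18 ± 0.28, adjusted p = 0.0331). Knockout 2 was the highest array for each of the 3. Cyba lost its call without wild-type 1 or 2 or knockout 3, and Cd14 and Tlr2 without any wild-type array or knockout 3. Without wild-type 1 or knockout 3 the list had 1 fall and 0 rises. Without wild-type 2 it had 4 and 0, without wild-type 3 it had 5 and 1, and without knockout 1 it had 3 and 4. Of all genes, 9.98%, 9.23% and 8.08% were called without wild-type 1, 2 and 3, and 13.7% and 6.79% without knockout 1 and 3.

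Of 21 measured lysosomal and lipid-handling genes 1 fell (4.76%) and 0 rose, against 8.51% and 7.65% of all genes, with a median of −0.10. The gene was Acp5, the tartrate-resistant phosphatase of osteoclasts and macrophages, which read 10.46, 10.31 and 10.49 in wild type and 9.82, 9.33 and 9.68 in knockout. Acp5 fell by 0.81 ± 0.14 (adjusted p = 0.0106) and kept its call without any 1 array. Without knockout 2 the list had 3 falls, and without knockout 1 it had 1 rise. Those fits called 17.5% and 13.7% of all genes, both directions together.

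Markers of other cell types moved between the genotypes, and their part in the macrophage differences was not tested. Their lists, too, were chosen with earlier results of these data known. Beside the counts below, 8.51% of all genes fell and 7.65% rose with all arrays. Of 9 B cell genes all 9 fell (median −0.88), and the smallest p was that of Ms4a1, which fell by 0.88 ± 0.11. Of 10 T cell genes 7 fell (median −0.54), among them Cd28, which fell by 0.76 ± 0.14. Of 10 genes shared by leukocytes 4 fell (median −0.48), of 9 mast cell genes 6 (−0.51), of 9 dendritic cell genes 3 (−0.38) and of 10 neutrophil genes 3 (−0.35). The named dendritic and neutrophil genes were Cd207, or langerin, which fell by 1.71 ± 0.10, and S100a9, which fell by 1.69 ± 0.17. No gene of these 6 lists rose with all arrays, and 1 mast cell gene did without knockout 2. With 1 array left out, falls numbered 4 to 8 for B cells, 1 to 6 for T cells and 1 to 5 for shared leukocyte genes. They numbered 2 to 6 for mast cells, 1 to 3 for dendritic cells and 1 to 5 for neutrophils. None of these counts was lower than without knockout 3, where the share of all genes called was also lowest, at 6.79%.

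Epithelial and fat markers moved as well. The luminal list rose in 9 of 10 genes (median 1.27) and the basal list in 7 of 8 (median 0.87), against 7.65% of all genes. Of 8 measured white adipocyte genes 5 fell (62.5%, median −0.64), against 8.51% of all genes. With 1 array left out, 6 to 9 luminal genes rose, and basal rises numbered 4 without wild-type 3 and 5 or 6 without another array. Adipocyte falls were 3 without wild-type 1 or wild-type 3, 2 without knockout 3 and 4 to 6 otherwise. In fits with 1 array left out, 6.79% to 17.5% of all genes were called. Of 10 fibroblast genes 2 fell and 0 rose (median −0.03), and of 10 endothelial genes 2 fell and 1 rose (median −0.06). No fibroblast gene fell without wild-type 1, wild-type 3 or knockout 3, 1 fell without wild-type 2 or knockout 2, and the median ranged from −0.16 without wild-type 2 to 0.21 without knockout 2. Endothelial falls were 0 when wild-type 2, when wild-type 3 and when knockout 3 was dropped, and 1 without wild-type 1 or knockout 1. Skeletal muscle genes differed widely between arrays, with list means of 7.65, 9.03 and 5.57 in wild type and 5.13, 6.56 and 7.14 in knockout, and none of 10 passed in limma, with 0 at an unadjusted p under 0.05. Without wild-type 3, 1 muscle gene fell, while 8.08% of all genes were called in either direction. In that fit 7 muscle genes were lower at an unadjusted p under 0.05, for which the share of all genes was not computed. The median of the muscle list moved from −1.40 to −2.45 there. It was −0.29 without wild-type 2 and −0.63 without knockout 1. With that muscle mean as a covariate, 2 members were higher (Clec7a and Msr1) and 2 were lower (Retnla and Marco), while 12.8% of all genes were called. In that fit Maf, Csf1, Mrc1 and Clec10a differed by −0.85, −0.38, −0.47 and −0.66, and their adjusted p-values of 0.0571 to 0.0826 missed the threshold. Differences between the lists were not tested.

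**Figure D5:**
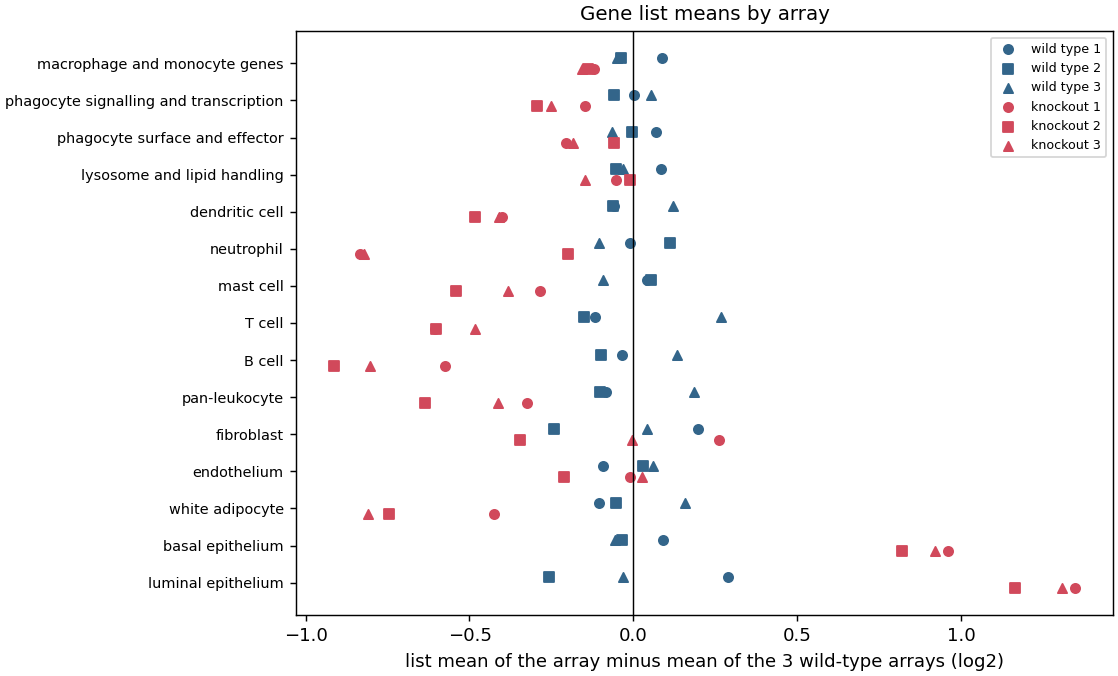
Mean log2 value of each gene list in each array, minus the mean of the 3 wild-type arrays; blue is wild type, red is knockout and the marker shape gives the replicate number. The macrophage list lies close to 0 for all 6 arrays, with the 3 knockout arrays to the left of the 3 wild-type arrays. The B and T cell lists lie further to the left in knockout and both epithelial lists to the right.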

How the data were processed

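Total RNA of whole mammary glands was labelled with biotin and read on 6 single-channel Affymetrix arrays, 3 per genotype, per the labels' protocols. The authors deposited RMA values, named so in the submitters' processing notes, on a log2 intensity scale as the values show. RMA corrects background and quantile normalizes, which removes any shift of most transcripts and compresses folds of dim sets. The software is not given in the sources used here.

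Of 45101 probe sets, 64 controls were left out. Of 45037 tested, 34945 had 1 gene symbol, 932 had several and 9160 are unnamed. RefSeq (GRCm38.p6) gave current symbols by Entrez identifier, and 204 had no match. The comparison used limma 3.58.1 under R 4.3.3 (lmFit, eBayes, two-sided, 4 residual degrees of freedom), with Benjamini-Hochberg adjustment over all probe sets and a threshold of 0.05. The fit was tested on simulated data. Intervals are 95%. Figures used matplotlib 3.10.9.

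Members and lists were chosen with earlier results of these data known. All members are named. From each other list, up to 4 called genes with the smallest p could be named, and others are said to be chosen later. The 15 alternatives and a fold limit of 1.5 are covered in the closing section.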

Additional observations from a re-analysis of the deposited data

How the results depend on the processing

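Under 15 alternatives, 536 member differences were recomputed. None of the 7 called members changed sign. Numbers of members past the threshold, 2 higher and 5 lower, became 1 higher with the replicate block, with averaged probe sets and at 1.5-fold or more, and 2 lower with the muscle covariate and 3 lower at 1.5-fold or more. With 1 array left out they ranged from 0 to 2 higher and from 0 to 4 lower, and the median from −0.21 to −0.12. Averaged probe sets gave 7 lower. Array weights gave 3 higher and 6 lower, and the filter on dim probe sets and another variance prior each gave 2 higher and 6 lower. The share of all genes called moved too, from 16.2% in the main fit. It was 19.2% with array weights, 15.7% with the other prior, 16.8% with averaged sets and 12.8% with the muscle covariate. The dim filter called 26.3% of the genes it kept. No member was called without wild-type 1 or without knockout 3. Every fit with 1 array left out had equally few samples, and the cause was not tested.

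Replicate numbers were checked as a possible pairing. Deviations of same-numbered samples correlated at −0.05, 0.19 and −0.02, and those of differently numbered samples at −0.19 to 0.26. With 3 arrays per group these values cannot decide whether the numbers pair samples, and the labels do not say. With the replicate block 1 member was higher and 4 lower, while 15.8% of all genes were called in either direction.

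Of 36 members, 9 turned sign under some alternative, none of them called. Trem2 was 0.11 without sets that can match several transcripts. Gpnmb was −0.054 with array weights and −0.052 with averaged sets, and Lgals3 was −0.029 with array weights. With the muscle covariate Ctss was 0.0014 and Ms4a7 0.088. With 1 array left out the range was, for Spi1 from −0.0087 to 0.029, Mertk from −0.43 to 0.022, Tyrobp from −0.045 to 0.091, Ctss from −0.080 to 0.0009, Gpnmb from −0.29 to 0.36, Ms4a7 from −0.15 to 0.051, Arg1 from −0.65 to 0.40 and Lgals3 from −0.059 to 0.082. The cause was not tested. Of the uncalled members, 5 passed under some alternative: Csf1r and Fcgr1 with averaged probe sets, Marco with the muscle covariate, Itgax with array weights, and Ctsb with averaged sets, array weights, the dim filter or another variance prior. Itgam, Cd209a and Trem2 had the dimmest probe sets of the members, where RMA compresses folds most.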
